A study of Caenorhabditis elegans with 2 samples.

Results

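The 4 Caenorhabditis elegans genes described here are cye-1, cdk-9, cdc-48.1 and ify-1, out of 46926 genes in the Ensembl annotation of the assembly WBcel235. They were chosen by the deposited peak calls: each has a thresholded ChIP-seq peak of the nuclear hormone receptor NHR-12 near its start, so those peaks are a description and carry no test. All 4 have a peak by that choice, beside 2.49% of the 14976 genes with any pooled candidate at their start, and nothing is read from that difference. All regions within 3 kb of the 4 gene bodies were listed, and they numbered 5 thresholded peaks of 249, 17 pooled candidates of 28574, 21 candidates of 30000 in replicate 1 and 17 of 30000 in replicate 2. The chromatin came from whole mixed-stage embryos, male and female pooled. The strain, OP318, has the mutation unc-119(ed3) III and the insertion wgIs318, which supplies eGFP-tagged NHR-12. Both samples belong to 1 group, labelled biological replicates 1 and 2, without saying what was kept separate between them. No second genotype or treatment was named, the labelled control was not analysed here, and the labels say neither which promoter drives the transgene nor whether native NHR-12 is present as well. Signal below is the value that the authors' peak caller gave each region on a scale the sources do not state, so ranks within a list are given with it and sizes are not compared between lists. Read depth is unknown.

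Progress through the cell cycle is driven by cyclin-dependent kinases, each switched on by a cyclin partner, and by timed protein destruction. Cyclin E, the product of cye-1, activates the kinase CDK-2 for entry into S phase. IFY-1 is the worm securin, which holds the protease separase (SEP-1) inactive until anaphase. CDC-48.1 is an AAA ATPase of the p97 type that extracts ubiquitylated proteins from complexes and membranes, in worm embryos also during DNA replication. CDK-9 carries the kinase family's name but acts in transcription: with cyclin T (CIT-1.1 and CIT-1.2) it phosphorylates RNA polymerase II during elongation. The heading of cell cycle genes therefore describes cye-1 and ify-1 most directly. NHR-12 itself belongs to the nuclear hormone receptors, a family of zinc finger transcription factors that is much enlarged in nematodes.

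The peak region of cdc-48.1 is shown as sequence because its summit falls between genes, close to the start of the member, with no divergent gene nearby. The run covers 100 bp on either side of the pooled summit, is read 5′ to 3′ on the strand of cdc-48.1, and ends 79 bp before the start of the gene. The window touches no annotated exon. Capitals mark the stretch from the first to the last of the 3 summits placed by the pooled list and by each replicate. The sequence is that of the RefSeq copy of WBcel235, minus strand, chrII:10563486-10563686.
cdc-48.1: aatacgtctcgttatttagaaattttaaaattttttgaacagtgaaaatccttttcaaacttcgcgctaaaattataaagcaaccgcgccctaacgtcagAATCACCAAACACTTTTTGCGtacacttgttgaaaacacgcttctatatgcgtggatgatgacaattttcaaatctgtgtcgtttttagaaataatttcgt
The marked stretch is 21 bases long, so the replicates put the point of strongest enrichment in nearly the same place. The run holds the letters TATAAA upstream of its capitals.

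The promoter peak of cdc-48.1 had the largest signal of the 4 promoter peaks and was the only one of them with no divergent coding gene starting within 1000 bp. The peak, on chromosome II from 10563408 to 10563763, had a signal of 44.3 and ranked 84 of 249. Its summit lay 179 bp upstream of the start of cdc-48.1. The nearest coding start on the other strand was that of C06A1.7, 1305 bp from the summit. The next gene upstream, C06A1.6, runs in the same direction as cdc-48.1 and ends 704 bp before it begins. The overlapping region had a signal of 24.5 in replicate 1 (rank 112) and 16.5 in replicate 2 (rank 226). These values are 3.59 and 2.89 times the median of their own lists, and the summits differed by 15 bp. The 2 replicates thus both placed this region among their 249 best.

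Regions elsewhere around cdc-48.1 were weak. The gene hosts the snoRNA genes C06A1.9 and C06A1.8, and a replicate 1 candidate of signal 8.95 (rank 6687) had its summit in an intron, 113 bp past the start of C06A1.9. Replicate 2 had no region overlapping that one. A pooled candidate of signal 10.97 (rank 12353) lay in a coding exon 1141 bp inside the gene. Beyond the gene's end, a pooled candidate of signal 9.04 ranked 20764.

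At ify-1 the peak summit lies in the 436 bp between divergent genes, so its owner cannot be told from position alone. The peak, on chromosome II from 5055174 to 5055529, had a signal of 35.6 and ranked 154. Its summit lay 173 bp upstream of the start of ify-1 and 264 bp upstream of that of rpl-22, which encodes a protein of the large ribosomal subunit and is transcribed the other way. Signals were 19.0 in replicate 1 (rank 245) and 16.95 in replicate 2 (rank 202). Both replicate summits fell on the rpl-22 side of the pooled summit, 198 and 203 bp from ify-1 against 239 and 234 bp from rpl-22. The replicates differed by 5 bp, the closest pair among the 5 peaks of these genes. Replicate 2 had another region overlapping the peak, 29 bp upstream of rpl-22, with a signal of 6.09 (rank 12863).

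A weaker candidate near ify-1, not a thresholded peak, lay within the body of its neighbour. A pooled candidate with its summit in an rpl-22 exon, 228 bp past the rpl-22 start, had a signal of 18.3 (rank 1607), with 7.59 in replicate 1 (rank 11269) and 7.94 in replicate 2 (rank 5628). Farther out, a pooled candidate of signal 14.9 (rank 3936) had its summit 17 bp upstream of the tRNA gene WBGene00022945, inside C27A2.12. Replicate 1 had a region there (signal 15.3, rank 619) and replicate 2 had none. The 3′ side of ify-1 held pooled candidates of signal 9.98 and 10.6 only, both in coding exons of F33G12.6.

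**Figure D1:**
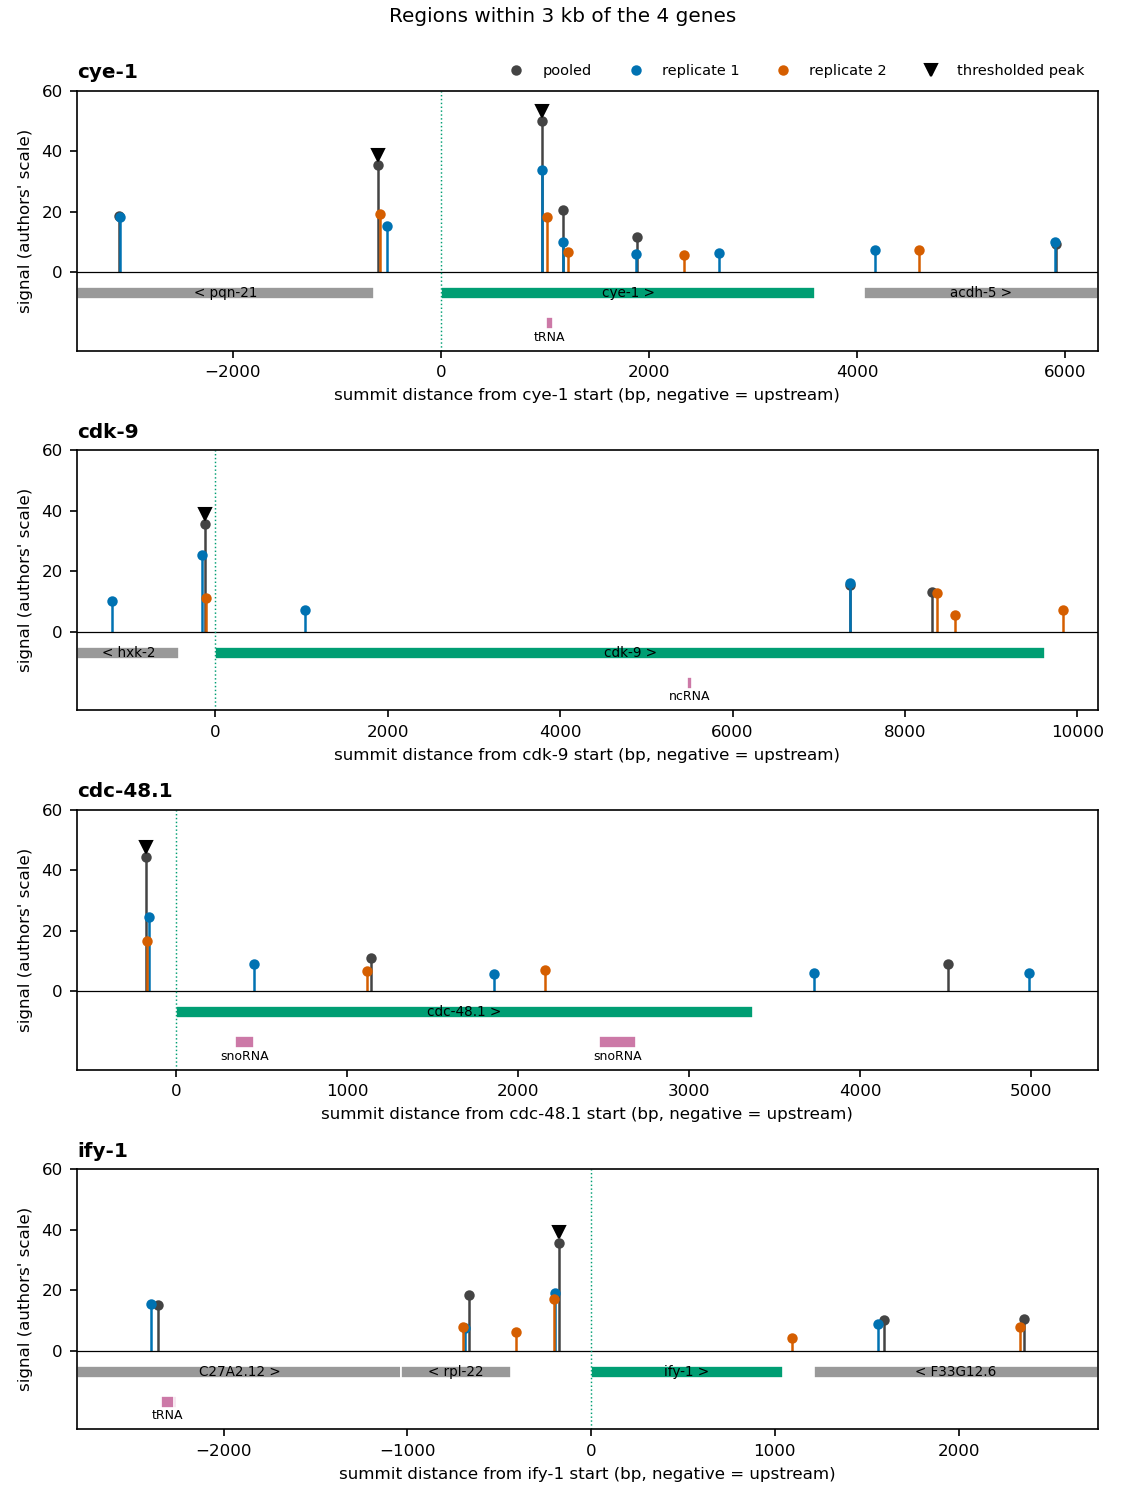
Regions within 3 kb of each gene, drawn by the distance of their summit from the gene's start (bp, negative is upstream) against signal on the authors' scale, for the pooled list and for each replicate; bars below 0 are genes, with arrowheads for direction, and black triangles mark thresholded peaks. Each gene has a triangle upstream of its start, cye-1 has another at 967 bp inside the gene, and heights are comparable within 1 list only.

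The promoter peak counted for cye-1 sits much closer to another gene. On chromosome I from 6780019 to 6780374, with signal 35.4 and rank 159, it had its summit 602 bp upstream of cye-1 but 46 bp upstream of pqn-21, a gene for a protein with a glutamine- and asparagine-rich domain that is transcribed the other way. The starts of the genes are 648 bp apart. Signals were 15.4 in replicate 1 (rank 599) and 19.1 in replicate 2 (rank 133). The replicate 1 signal was 2.26 times its list's median, with a −log10 q value of 1.32 against a highest value of 2.48 in that list. Replicate 1's summit lay 517 bp from cye-1 and 131 bp from pqn-21, and replicate 2's lay 586 bp and 62 bp from them. The replicate summits were 69 bp apart, the widest gap among the 5 peaks, against a median of 35 bp over all thresholded peaks. In every list the summit was nearer to pqn-21.

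Inside cye-1 was a larger peak, at a tRNA gene. It covered 6781588 to 6781943 on chromosome I, had a signal of 49.9 and ranked 62, above the promoter peaks of all 4 genes. The summit lay 967 bp past the cye-1 start, in the 859 bp intron between exons 2 and 3, and 37 bp upstream of WBGene00022955. This 72 bp gene, from 6781803 to 6781874 on the same strand as cye-1, is annotated by RefSeq as tRNA-Cys. Transcription of tRNA genes is by RNA polymerase III from promoter boxes within the gene. Signals were 34.0 in replicate 1 (rank 37) and 18.3 in replicate 2 (rank 154). The replicate 1 summit lay 36 bp upstream of the tRNA start, and that of replicate 2 lay 16 bp inside the tRNA gene. A weaker candidate overlapped the far side of the peak, with signals of 20.5 in the pooled list (rank 980), 9.84 in replicate 1 (rank 4706) and 6.80 in replicate 2 (rank 9387). Many tRNA genes occur in near-identical copies. Whether this one does, and whether that affected where reads were placed, was not tested. With both peaks counted, cye-1 was 1 of 11 protein-coding genes with more than 1 thresholded peak from 1000 bp upstream to the gene's end.

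Other regions around cye-1 were called in 1 replicate or stayed low. A pooled candidate of signal 18.6 (rank 1516) in a coding exon of pqn-21 had a counterpart in replicate 1 (signal 18.3, rank 290) and none in replicate 2. It lay 2919 bp from the cye-1 body, just inside the 3 kb limit, and the first pooled candidate outside that limit, at 3004 bp, had a signal of 10.05. In the coding exons of cye-1 itself, a pooled candidate of signal 11.7 ranked 10198. Candidates in acdh-5, the next gene downstream, did not exceed a signal of 10.02 in any list.

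The cdk-9 peak has its summit in another divergent gap, with 1 edge inside cdk-9, and ranked much higher in replicate 1 than in replicate 2. It covered 11323234 to 11323589 on chromosome I, with a signal of 35.6 and rank 155, nearly the same pooled signal as at ify-1 and cye-1. Its summit lay 115 bp upstream of cdk-9 and 302 bp upstream of hxk-2, a hexokinase gene transcribed the other way; the starts are 417 bp apart. Replicate 1 gave it a signal of 25.43 (rank 102), which is 3.72 times its list's median. In replicate 2 the signal was 11.24 (rank 1260), or 1.97 times the median, and the −log10 q value was 1.26 against a highest value of 2.88 in that list. The summit was 160 bp from cdk-9 in replicate 1 and 113 bp in replicate 2, nearer to cdk-9 than to hxk-2 in both.

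Within the long cdk-9 gene the replicates had separate intronic regions. Replicate 1 had a region 7362 bp past the start with a signal of 16.1 (rank 483), matched by a pooled candidate of signal 15.3 (rank 3590) and by nothing in replicate 2. Replicate 2 had a region 8370 bp past the start with a signal of 12.7 (rank 702), matched by a pooled candidate of signal 13.2 (rank 6638) and by nothing in replicate 1. In replicate 2 this intronic region ranked above the one at the cdk-9 promoter (signal 11.24, rank 1260).

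Each replicate supplied a region overlapping all 5 peaks, but not with the same standing. Such overlap is the rule: of all 249 thresholded peaks, 249 were overlapped in replicate 1 and 248 in replicate 2. The intronic cye-1 peak and the peaks of cdc-48.1 and ify-1 were among the 249 best regions of both replicates, a count of 3 of 5, against 100 of all 249 thresholded peaks (40.2%). The ify-1 peak, at rank 245 in replicate 1, was close to that limit. The cye-1 promoter peak was among the best of replicate 2 and not of replicate 1, and the cdk-9 peak among the best of replicate 1 and not of replicate 2. Of all peaks 177 were among the best of replicate 1 and 149 among those of replicate 2. The thresholded list, which chose the members, ends at a signal of 30.7, and the best pooled candidate left out of it had 30.6.

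**Figure D2:**
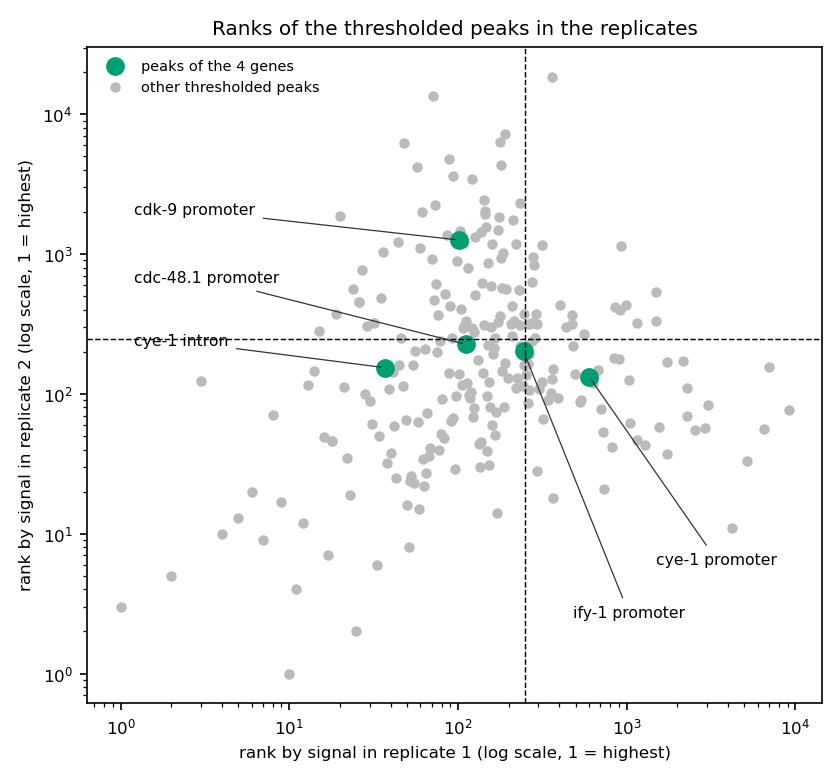
Rank by signal in replicate 1 (horizontal) and in replicate 2 (vertical) for the thresholded peaks with a region in both, on log axes where 1 is the highest signal; green points are the 5 peaks of the 4 genes, grey points the others, and dashed lines mark rank 249. Of the green points 3 lie inside both lines, cdk-9 lies above the horizontal line at rank 1260 and the cye-1 promoter right of the vertical line at rank 599.

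Divergent coding genes flank 3 of the 4 promoter peaks: cye-1 with pqn-21, cdk-9 with hxk-2, and ify-1 with rpl-22. Among all thresholded peaks, 134 had a protein-coding start from 1000 bp upstream to 200 bp downstream (summit in that start window), and 38.1% of those had starts on both strands there. GC content within 100 bp of the summit was 52.2% at the cye-1 promoter, 48.8% at the cye-1 intron, 34.3% at cdk-9, 33.3% at cdc-48.1 and 44.3% at ify-1. The median was 46.8% over all peaks and 37.8% over the 28282 pooled candidates that overlap none. GC content was thus not shared: cdk-9 and cdc-48.1 were below the median candidate and the others above it.

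Short motifs were searched as exact letters on both strands within 100 bp of each summit. CTGCGTCT occurred at both cye-1 peaks and at none of the other members. At the cye-1 promoter it was centred 10.5 bp from the pooled summit, on the side away from cye-1, and at the intronic peak 72.5 bp upstream of it. The same letters were in 32 of the 249 peak windows (12.9%) and 2.30% of candidate windows. CCAAT also occurred at both cye-1 peaks, against 63 of all 249 peaks and 37.2% of candidates. TATAAA occurred at cdc-48.1 alone, centred 24.5 bp from the summit on the side away from the gene, against 10.8% of all peaks and 17.8% of candidates. No match overlapped another. The letters AGGTCA, a half-site of many nuclear receptors, and the related AGTTCA were in none of the 5 windows, and were in 5.22% and 4.82% of all peaks, against 5.70% and 12.7% of candidates. None of the 5 windows held TTTCCCGC, TTTGGCGC, TTTGGCGG or TTTCCCGG, which are forms of the site of E2F, a regulator of cyclin E genes in animals. None of these forms was in more than 2.41% of all peaks or 1.04% of candidates. Letters this scarce are missing from most windows, so nothing about cye-1 is read from their absence. GAGAGAGA was absent from the 5 windows too, as was ATTTGCAT. So was CACGTG, an E-box (5.22% of all peaks, 4.32% of candidates). The letters TGATAA, a form of the GATA factor site, were in none of the 5 windows either (6.43% of all peaks, 16.8% of candidates). A missing match says only that these letters are not in the window.

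None of the members' paralogs and direct partners looked at had a thresholded peak within 3 kb of its body. Peaks are scarce at other genes too, counted in the narrower start window: 189 of 7138 protein-coding genes with a candidate there had one (2.65%). The share of all genes with a peak within 3 kb of the body was not counted. Nothing is therefore read from the absence of peaks at these few genes. The near relative cdc-48.2 had a pooled candidate of signal 10.7 (rank 13424) with its summit 537 bp upstream, and replicate signals of 6.77 (rank 15287) and 9.43 (rank 2788) in its start window. Its largest pooled signal within 3 kb was 16.4 (rank 2680), 720 bp inside the gene. For sep-1, the separase that securin holds in check, the best pooled signal in the start window was 10.05 (rank 15882), with 5.21 in replicate 1 and 6.64 in replicate 2. Within 3 kb of the sep-1 body the largest pooled signal was 12.2 (rank 8766), with its summit 2344 bp upstream of the sep-1 start. The largest in replicate 2 was 11.3 (rank 1228), 2082 bp upstream. That of replicate 1, 14.6 (rank 755), stood apart from these, 2349 bp past the start. Neither cit-1.1 nor cit-1.2, the cyclin T genes, had a region summit in the start window in any list. The gene of cyclin E's kinase, cdk-2, had none in the pooled list or replicate 1 and a region of signal 4.74 (rank 21970) in replicate 2.

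The wider pathways of these genes were taken as 8 lists, which hold the members too. The lists include cyclins, cyclin-dependent kinases, regulators of G1/S and of these kinases, and anaphase genes. The others are mitotic kinases and checkpoint, CDC-48 and its cofactors, transcription elongation and DNA replication. Together the lists hold 173 genes of the annotation, of which 100 had a pooled candidate summit in the start window. A peak was there in 5 of the 100 genes (5.0%), and 4 of the 5 are the members, which were chosen for having one. Without the members, 96 had a candidate and 1 had a peak (1.04%). In the whole annotation 373 of 14976 genes with such a candidate had a peak (2.49%), and among protein-coding genes 189 of 7138 did (2.65%). Counting the members in or out puts the lists' share above or below these values, so no difference from other genes is read from it. The median of the best pooled signal was 12.2 over the 96 listed genes and 11.06 over the protein-coding genes with a candidate.

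The other listed gene with a peak in the start window was sas-5, which encodes a centriole duplication protein. Its peak, on chromosome V from 11610488 to 11610843, had a signal of 35.5 and ranked 158, next to cye-1 at 159, with replicate signals of 20.9 (rank 182) and 18.7 (rank 145). The summit lay 71 bp upstream of sas-5 and 517 bp upstream of the divergent gene piit-1. Among regulators of G1/S, with 11 genes with a candidate and no peak in the start window, cki-1, a CDK inhibitor gene of the p27 type, had the largest pooled signal there, 25.8 (rank 395), with 19.7 in replicate 1 (rank 215) and 8.39 in replicate 2 (rank 4605). Outside that window, a thresholded peak of signal 31.3 (rank 234) had cki-1 as its nearest coding start, with its summit between genes 1305 bp past that start. A thresholded peak of signal 34.8 (rank 168) fell just outside the window of spd-5, in the mitotic list, with its summit 208 bp past the start. DNA replication had 22 genes with a candidate and no peak in the window, and its largest pooled signal was 19.9 at psf-2, for a subunit of the GINS complex. Cyclins had 8 with a candidate, cyclin-dependent kinases 10, anaphase genes 14 and mitotic kinases and checkpoint 14, with 1 peak each. CDC-48 and its cofactors had 10 and transcription elongation 13, also with 1 peak each. In mitotic kinases and checkpoint that peak was at sas-5. In the other lists with a peak it was at a member: cye-1, ify-1, cdc-48.1 itself, or cdk-9, which is in both the kinase and the elongation list.

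**Figure D3:**
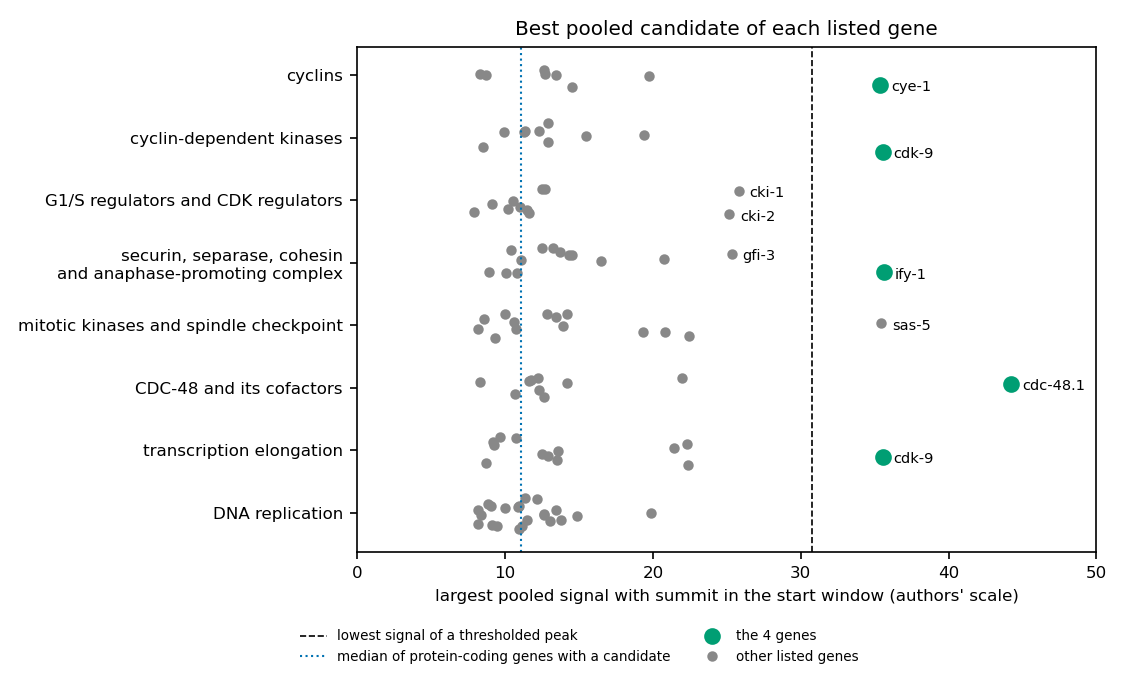
Largest pooled signal (authors' scale) with its summit in the start window for each listed gene that has one, by list; green points are the 4 genes, grey points other genes, the dashed line is the lowest signal of a thresholded peak (30.7) and the dotted line the median of protein-coding genes with a candidate (11.06). In 6 lists 1 gene lies right of the dashed line, in 2 lists none does, and cki-1, cki-2 and gfi-3 come closest below it; cdk-9 is drawn in both lists that hold it.

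Other peaks were compared with those of the members by the Euclidean distance of log2 signal over 3 values (pooled, replicate 1, replicate 2), as a description. Most like the ify-1 peak were those nearest to dnj-29, spcs-2 and mtss-1 (distances 0.0399, 0.0456 and 0.0693, against a median of 0.69 over all other peaks). Their summits lay 171, 130 and 183 bp upstream of these genes, and the ify-1 summit 173 bp upstream of ify-1. Position was not used, and such likeness did not hold throughout. The peaks most like the cye-1 promoter peak lay 9003, 2338 and 8 bp past their nearest coding starts. The peaks most like that of cdk-9 were nearest to gtsf-1, haao-1 and spe-39, with replicate 1 ranks of 109, 103 and 99 and replicate 2 ranks of 1208, 1451 and 886. Ranks near those of the cdk-9 peak follow from the choice by signal. The peaks most like that of cdc-48.1 were nearest to cmtr-1, fbxl-2 and epn-1, at distances of 0.12 to 0.15. The cye-1 promoter peak was most like those nearest to F49E11.2, K12G11.6 and tmem-107, and the intronic cye-1 peak most like those nearest to nhr-256, phy-4 and dhs-8. For all these peaks the gene's name only locates the peak: F49E11.2 and phy-4 start 9003 and 9270 bp from the summit, and haao-1 1315 bp. The peaks nearest to dnj-29, spcs-2 and mtss-1, like that of ify-1, had their summits in the start windows of coding genes on both strands.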

How the data were processed

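The authors deposited narrowPeak lists without a header line. Per the description files, candidates were called against a control in each replicate and in the replicates combined (the pooled list), and the thresholded (optimal) peaks from comparing the lists by the irreproducible discovery rate. The sources used here give no aligner, peak caller or threshold. The authors' signal and −log10 q value are used as deposited; 203 of 249 thresholded peaks share the highest −log10 q, so ranks are by signal. Only the ce11 lists were used (ce11 and WBcel235 name the same assembly), and positions are 1-based, the summit being columns 2 and 10 summed plus 1. Genes came from Ensembl release 115. The start window ran 1000 bp before and 200 bp past a gene's start, and a gene had a peak when it held a summit. Overlap meant 1 bp or more.

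There is 1 group of 2 replicates and no test was run. The members, gene lists and motifs were chosen with earlier results of these data known. Named genes are the members, genes starting nearest their summits, set partners and paralogs, listed genes with a peak, each list's gene of largest pooled signal, and the nearest genes of the 3 most similar peaks; others were chosen after their values were seen. The sequence of another peak region is not reported here. The assignment of summits to starts was tested on simulated data. The lists hold no read counts, so neither depth nor the error of a signal is known. Python 3.11.15 and pandas 2.3.3 were used.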

Additional observations from a re-analysis of the deposited data

How the results depend on the processing

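All 4 members had a peak in the start window with any base of a peak in place of its summit and with any annotated transcript start. With only the peaks above the median signal of 39.2, 1 member (cdc-48.1) kept its peak and 1 listed gene in all did, against 4 members and 5 listed genes with all peaks. Leaving out a replicate, by taking the 249 best regions of the other, gave 3 members either way, without cdk-9 when replicate 1 was left out and without cye-1 when replicate 2 was. Listed genes then numbered 5 to 6; mdf-2 and bet-2 came in with replicate 2 alone, and cki-1 with replicate 1 alone. A window of 500 bp upstream lost cye-1 and left 4 listed genes. Any base of a peak gave 6 (adding spd-5), and any transcript start gave 7 (adding scc-2 and spd-5). Requiring 50% overlap kept all 5 peaks shared by the replicates. Of all 249 peaks, 245 were overlapped that far in replicate 1 and 246 in replicate 2. Ranked by −log10 q, all 5 were tied at rank 102. Depth is unknown, so no limit on a signal value can be given.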

Other observations

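The tRNA gene inside cye-1 is 1 of 290 tRNA genes lying within a protein-coding gene, of which 15 (5.17%) had a thresholded summit within 50 bp; of the 344 tRNA genes elsewhere, 9 (2.62%) had one. A pooled candidate lay as close to 93 of the first and 92 of the second. The difference was not tested.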
